A study of Mus musculus with 17 samples.

Results

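The Fc gamma receptor family was taken as 5 genes, which are 5 of the 38340 named genes of the deposited expression table, and all 5 were among the 14012 genes expressed highly enough to be tested. The members were taken by gene name, and earlier results of these data were known when they were chosen. Fcgr1, Fcgr3 and Fcgr4 encode the activating receptors for the constant part of IgG, Fcer1g encodes the signalling chain that these 3 receptors share, and Fcgr2b encodes the inhibitory receptor. Expression was measured by RNA sequencing in 17 spleen libraries from mice of the strain labelled CB57BL/6NCrl. The RNAs given were SLR10, SLR14, pppNS and poly(I:C), in 3 libraries each, and the controls were 2 libraries from mice given the jetPEI vehicle and 3 from naive, that is untreated, mice. SLR10 and SLR14 are stem-loop RNAs made as ligands of the RNA sensor RIG-I, poly(I:C) is an artificial duplex of RNA strands that mimics viral RNA, and the labels do not explain pppNS. The labels describe 25 µg of SLR in 200 µl, complexed with in vivo-jetPEI at an N/P ratio of 8 and injected intravenously, and give this same text for every library, so the dose and route of the other agents are not stated apart. The age of the mice and the time from injection to collection are not stated, and libraries of a group were taken as separate mice, which the labels do not say outright. If they were not, the p-values measure only the spread between these samples.

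Fc gamma receptors bind IgG that coats a particle or forms an immune complex. Cross-linked activating receptors signal through the paired tyrosine motif (ITAM) of the Fcer1g chain to kinases such as Syk and set off phagocytosis, killing and cytokine release, while Fcgr2b carries the opposing motif (ITIM), which recruits phosphatases and raises the threshold for activation. In spleen the activating receptors are found on monocytes, macrophages, neutrophils and, for Fcgr3, NK cells, and Fcgr2b is the main Fc gamma receptor of B cells and is also present on myeloid cells. Fcgr1 has the highest affinity for IgG, and transcription of Fcgr1 is known to be driven by interferon gamma.

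In GENCODE vM21 (GRCm38), Fcgr1 (ENSMUSG00000015947) was alone on chromosome 3, at chr3:96282909-96293969 on the minus strand. The other 4 genes lay within 276 kb of chromosome 1. In order along the chromosome these were Fcgr2b (ENSMUSG00000026656, chr1:170958617-170976547, minus strand), Fcgr4 (ENSMUSG00000059089, chr1:171018920-171029761, plus strand), Fcgr3 (ENSMUSG00000059498, chr1:171051174-171064935, minus strand) and Fcer1g (ENSMUSG00000058715, chr1:171229572-171234365, minus strand). Genes that are neighbours here therefore include the inhibitory receptor and 2 of the 3 activating receptors. Fcgr2b is overlapped on the opposite strand by the antisense gene Gm38204, and the strand setting of the authors' counting is not given in the sources used here, so reads of this pair cannot be told apart with certainty.

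Sequences before a transcription start of Fcgr1, Fcgr4 and Fcgr2b are shown. Fcgr1 and Fcgr4 are the 2 members that responded most to the RNAs, and Fcgr2b is the inhibitory gene with which they are contrasted. Each sequence is the 250 bases before a RefSeq transcription start (GRCm38.p6), 5′ to 3′ on the gene's own strand. They lie at chr3:96293970-96294219 (minus), chr1:171018676-171018925 (plus) and chr1:170976072-170976321 (minus), and capitals mark matches to a searched motif on either strand.
Fcgr1: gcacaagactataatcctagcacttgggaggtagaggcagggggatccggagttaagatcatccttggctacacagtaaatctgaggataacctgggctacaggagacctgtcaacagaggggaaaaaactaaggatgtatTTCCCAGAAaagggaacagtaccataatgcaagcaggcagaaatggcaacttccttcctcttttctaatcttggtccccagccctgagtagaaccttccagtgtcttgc
Fcgr4: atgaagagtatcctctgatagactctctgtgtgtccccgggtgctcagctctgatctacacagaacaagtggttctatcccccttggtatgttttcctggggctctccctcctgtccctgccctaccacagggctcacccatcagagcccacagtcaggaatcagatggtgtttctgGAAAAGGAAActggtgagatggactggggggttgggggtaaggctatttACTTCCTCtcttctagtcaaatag
Fcgr2b: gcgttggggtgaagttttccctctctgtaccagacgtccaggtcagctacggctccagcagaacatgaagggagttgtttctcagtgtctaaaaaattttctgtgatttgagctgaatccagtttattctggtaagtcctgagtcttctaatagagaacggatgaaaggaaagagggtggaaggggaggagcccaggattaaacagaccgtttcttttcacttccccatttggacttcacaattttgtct
The capitals in Fcgr1 match GAS, the gamma-activated site (TTCNNNGAA, which reads the same way on both strands), and begin 109 bases before the start. The first run of capitals in Fcgr4 matches ISRE, the interferon-stimulated response element (GAAA, any 2 bases, then GAAA), on the plus strand from 73 bases before the start, and the second matches the PU.1 element GAGGAAGT on the minus strand from 24 bases before it. The 3 motifs were not found overlapping one another. The same windows of Fcgr2b, Fcer1g and Fcgr3 held none of these letters. Those of Fcgr2b and Fcgr3 lie inside the GENCODE spans of their genes given above. Sequence before the outermost GENCODE ends of these 2 genes was not searched, so their lack of a match covers the RefSeq starts only. Of 32851 promoter windows of this length, 7.02% held GAS, 2.98% held ISRE and 2.44% held the PU.1 element. A match describes the letters only, and was not tested as a binding site.

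Part of the coding sequence cannot tell Fcgr2b from Fcgr3, and the longest identical run is shown because it bears on how reads of these genes were counted. It is 129 bases long, crosses a splice junction, and lies on the minus strand between bases 170966674 and 170968081 of chromosome 1 in Fcgr2b and between 171054167 and 171057792 in Fcgr3.
Fcgr2b and Fcgr3: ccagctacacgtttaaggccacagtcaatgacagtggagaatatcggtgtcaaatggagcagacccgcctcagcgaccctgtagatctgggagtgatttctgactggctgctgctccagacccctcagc
Of the 1733 distinct windows of 50 bases in Fcgr3 transcripts, 166 (9.58%) also occurred in Fcgr2b, and 44 windows of 100 bases did. Values of Fcgr3 and Fcgr2b are uncertain to the extent that the authors' counting split or dropped such reads. Fcgr1, Fcgr4 and Fcer1g shared no window of 50 bases with another annotated gene.

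Values are given in CPM as the authors named them, that is reads of a gene scaled to a library size that the authors had normalised. Each member had at least 310 reads in every library. Libraries held 26.5 M to 42.8 M reads, and 15.8 M to 29.6 M of these fell in named genes. Several libraries stood apart from the rest. Replicate 2 of SLR14 had a mean log2 level of 9 erythroid genes of 10.13, replicates 2 and 3 of poly(I:C) of 10.61 and 9.50, and replicate 3 of pppNS of 10.40, against 8.55 and 8.57 for the other pppNS libraries and 4.82 to 8.10 elsewhere. Each gene's log2 level was also taken relative to its median over the 17 libraries, and the median over 816 genes with under 1000 bases of exon minus that over 5517 genes with over 5000 (the short-minus-long measure) was 0.61 in pppNS replicate 3, 0.53 in naive replicate 3 and 0.34 in naive replicate 2, against -0.20 to 0.15 in the others.

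Fcgr1, the high-affinity activating receptor, rose with every agent. It stood at 34.7, 35.4 and 37.8 CPM in the SLR10 libraries, at 37.7, 42.3 and 49.1 in SLR14, at 24.2, 20.5 and 26.6 in poly(I:C), and at 26.3, 13.7 and 27.1 in pppNS. The vehicle libraries both lay at 9.24 CPM and the naive libraries at 7.39, 8.38 and 9.36 CPM. All 12 libraries of mice given an RNA were above all 5 control libraries, with the lowest value in pppNS replicate 2. Against vehicle the fold was 3.74 with SLR10 (95% interval 2.62 to 5.34, adjusted p = 2.49e-05) and 4.44 with SLR14 (3.11 to 6.34, adjusted p = 8.47e-06). It was 2.47 with poly(I:C) (1.73 to 3.53, adjusted p = 0.000658) and 2.25 with pppNS (1.58 to 3.21, adjusted p = 0.0118). These are tests with limma on log2(CPM + 0.5) over all 14012 genes, adjusted by Benjamini and Hochberg within each comparison. In bulk spleen, a change in the number of cells of a type and a change in RNA per cell cannot be told apart. The pppNS call was lost without vehicle replicate 1 (adjusted p = 0.109) or vehicle replicate 2 (adjusted p = 0.126), and with only these groups in the model (adjusted p = 0.264).

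**Figure D1:**
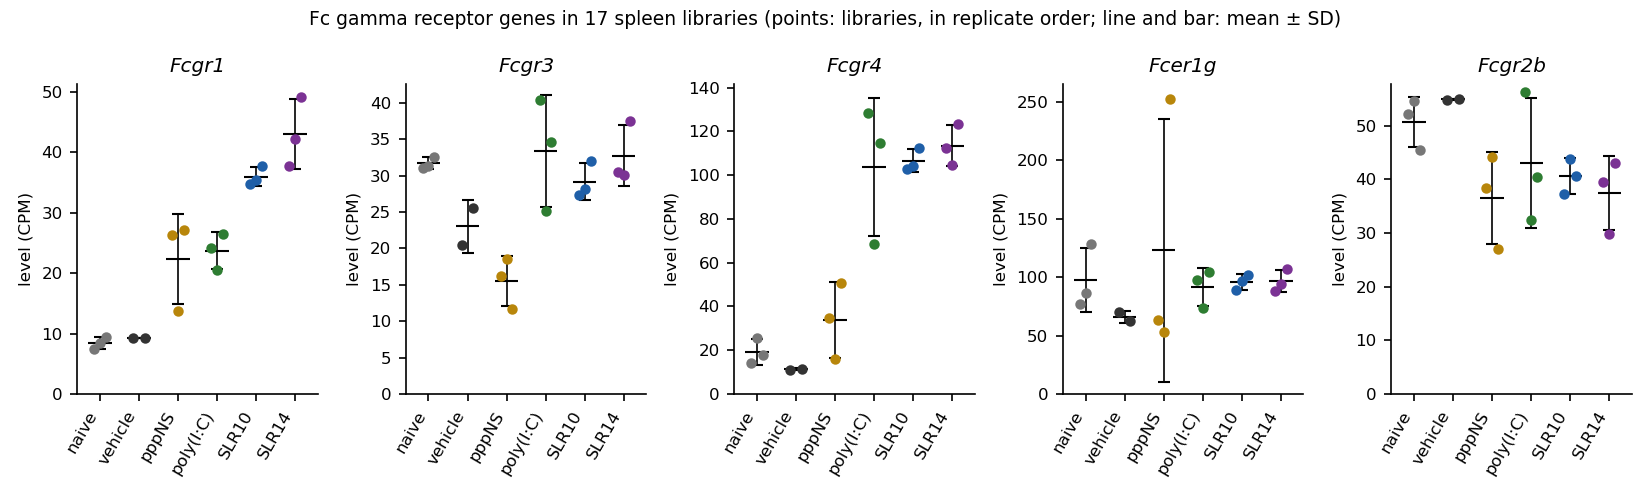
Level of the 5 genes in CPM (vertical axis, from 0, a separate scale for each gene) in naive, vehicle, pppNS, poly(I:C), SLR10 and SLR14 spleens; each point is a library, the line is the group mean and the bar 1 SD. The libraries of the stem-loop RNAs and of poly(I:C) lie above the controls for Fcgr1 and Fcgr4, and 1 pppNS library at 253 CPM stands apart for Fcer1g.

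Fcgr4, the activating receptor for IgG2 antibodies on monocytes, macrophages and neutrophils, had the largest fold of the family. It stood at 103, 104 and 113 CPM with SLR10, at 112, 105 and 123 with SLR14 and at 128, 68.4 and 115 with poly(I:C). The vehicle libraries lay at 10.98 and 11.6 CPM and the naive libraries at 14.1, 25.6 and 17.8 CPM. The 9 libraries of these 3 agents were all above the 5 control libraries. Against vehicle the fold was 9.08 with SLR10 (95% interval 5.15 to 16.01, adjusted p = 1.64e-05), 9.65 with SLR14 (5.48 to 17.01, adjusted p = 1.3e-05) and 8.55 with poly(I:C) (4.85 to 15.1, adjusted p = 2.38e-05) in the same limma fit. Naive mice had more Fcgr4 than vehicle mice without overlap, although the difference did not pass (log2 -0.70 ± 0.38 for vehicle minus naive, SE, adjusted p = 0.578). With naive mice as the control, the log2 change was smaller, at 2.48 with SLR10, 2.57 with SLR14 and 2.40 after poly(I:C), and all 3 remained past the threshold.

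With pppNS, Fcgr4 was at 34.8, 15.9 and 50.7 CPM. These values lay above both vehicle libraries but overlapped the naive ones. The fold of 2.63 against vehicle (1.49 to 4.63) did not pass in limma (adjusted p = 0.0569). It passed without pppNS replicate 2 (log2 1.85, adjusted p = 0.00187, against 1.39 with it) and with DESeq2 (log2 1.54, adjusted p = 0.00433), and was 0.69 on the log2 scale with naive mice as the control (adjusted p = 0.233). The library with the least Fcgr4 in this group, replicate 2, also had the least Fcgr1.

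Fcgr3, the low-affinity activating receptor, did not pass against vehicle with any agent. It was at 27.3, 28.1 and 32.05 CPM with SLR10, at 30.6, 30.1 and 37.6 with SLR14, at 40.4, 25.2 and 34.7 with poly(I:C), and at 16.2, 18.6 and 11.7 with pppNS. The vehicle libraries lay at 20.5 and 25.6 CPM and the naive libraries at 31.1, 31.4 and 32.6. The naive values thus fell among those of SLR10, SLR14 and poly(I:C), and the pppNS libraries were the 3 lowest of all 17. Against vehicle the log2 changes were 0.34 ± 0.21 (SE) with SLR10, 0.50 with SLR14, 0.51 after poly(I:C) and -0.57 after pppNS, with adjusted p of 0.237, 0.0793, 0.0776 and 0.152 in limma. The choice of control mattered here: with naive mice the SLR10 value was -0.12, and the pppNS value was -1.03 and passed (adjusted p = 0.00288). Other settings gave calls against vehicle. With only the groups compared in the model, SLR10 passed (0.34, adjusted p = 0.025), as did 70.7% of all genes. With the erythroid level given above as a covariate, SLR14 (0.60, adjusted p = 0.0145) and poly(I:C) (0.68, adjusted p = 0.0107) passed, as did 44.5% and 38.9% of all genes. Poly(I:C) also passed without its replicate 2 (0.70, adjusted p = 0.0186), as did 31.8% of all genes.

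Fcer1g, the signalling chain, was the most abundant member per kilobase of transcript and did not pass in any of the 11 comparisons. It was at 88.9, 97.0 and 102 CPM with SLR10, at 88.2, 94.3 and 107 with SLR14, and at 97.5, 73.2 and 104 with poly(I:C). The pppNS libraries lay at 62.9, 53.5 and 253 CPM, vehicle at 69.8 and 62.2 and the naive spleens at 77.0, 86.5 and 128. SLR10, SLR14 and poly(I:C) lay above both vehicle libraries but overlapped the naive ones, and pppNS held both the lowest and the highest value of the 17. Against vehicle the log2 changes were 0.53 ± 0.47 (SE) for SLR10, 0.54 for SLR14, 0.46 for poly(I:C) and 0.52 for pppNS, with limma adjusted p of 0.414, 0.412, 0.486 and 0.473. With only the groups compared in the model the SLR10 and SLR14 values passed (adjusted p = 0.000433 and 0.0203), as did 70.7% and 43.5% of all genes. With naive mice as the control the log2 changes were 0.01, 0.02, -0.07 and 0.00 for the 4 agents. A value of 0.52 for pppNS rested on replicate 3, without which it was -0.18.

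The Fcer1g level moved with the short-minus-long measure given above. Its exons cover 874 bases, the fewest of the family, so that it is 1 of the short genes in the measure, and its 2 highest libraries, pppNS replicate 3 and naive replicate 3, were also the 2 highest on that measure. Over the 17 libraries, which share the groups and the authors' normalisation, Pearson's r between the 2 was 0.81 for log2 Fcer1g, and -0.31 to -0.01 for the other members. With the measure as a covariate, chosen after the data were seen, the log2 changes of Fcer1g against vehicle were 0.15, 0.21, 0.35 and 0.11 for SLR10, SLR14, poly(I:C) and pppNS. The part of the measure in the Fcer1g values was not otherwise tested.

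**Figure D2:**
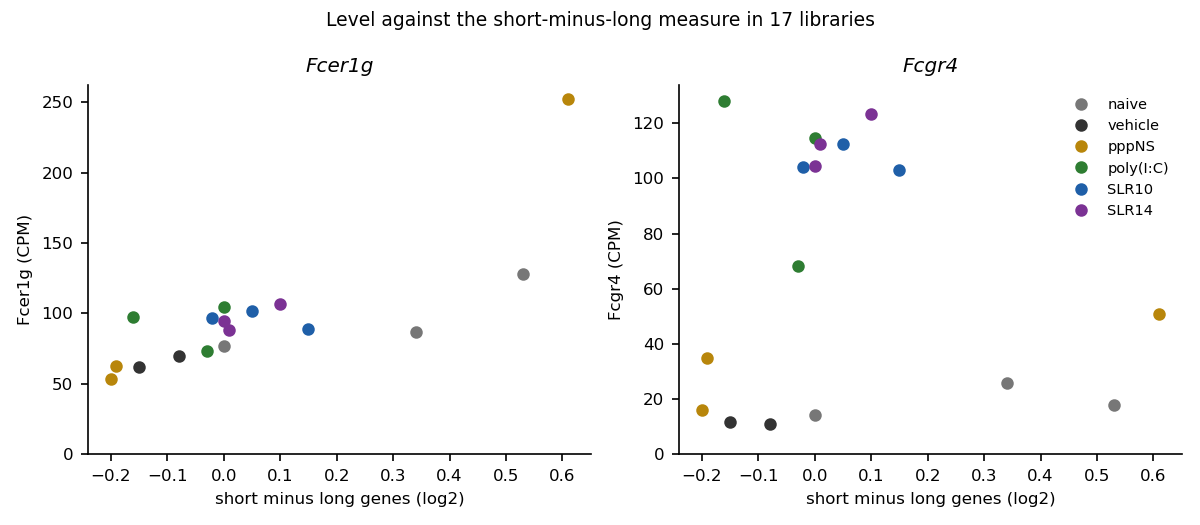
Level of Fcer1g (left) and Fcgr4 (right) in CPM against the short-minus-long measure in log2 units, 1 point per library, coloured by group. Fcer1g is highest in the libraries farthest to the right (253 CPM at 0.61 and 128 CPM at 0.53), while Fcgr4 follows the agent and shows no such order (r = -0.01).

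Fcgr2b, the inhibitory receptor, was not called in any comparison, and its point estimates lay below vehicle with every agent. It was at 37.3, 43.9 and 40.6 CPM with SLR10, at 39.4, 29.7 and 43.0 with SLR14, at 56.2, 32.4 and 40.4 with poly(I:C), and at 38.3, 44.1 and 27.1 with pppNS. The vehicle libraries lay at 54.8 and 55.0 CPM and the naive libraries at 52.1, 54.5 and 45.5. All SLR10, SLR14 and pppNS libraries were below all 5 control libraries, and poly(I:C) replicate 1 was above them. The log2 changes against vehicle were -0.43 ± 0.24 (SE) with SLR10, -0.57 with SLR14, -0.39 after poly(I:C) and -0.61 after pppNS (limma adjusted p = 0.169, 0.0748, 0.228 and 0.163).

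Whether Fcgr2b passed depended on the setting. Quantile scaling, which moved the median of all genes by -0.08, -0.11, -0.16 and -0.11 for the 4 agents, gave -0.76 with SLR10, -0.91 with SLR14 and -0.79 with poly(I:C), all past the threshold, and -0.88 with pppNS, which did not pass. With only the groups compared in the model, the SLR10 value of -0.43 passed (adjusted p = 0.00124), as did 70.7% of all genes. With the erythroid level as a covariate SLR10 (-0.49) and SLR14 (-0.40) passed, and poly(I:C) (-0.10) and pppNS (-0.21) moved towards 0. Over the 17 libraries Pearson's r of log2 Fcgr2b with the erythroid level was -0.68, and the lowest Fcgr2b value within SLR14, poly(I:C) and pppNS was in each case in a library with an erythroid level over 10. The same libraries held the lowest Fcgr3 value of their groups, and r for Fcgr3 was -0.45. For Fcgr1, Fcgr4 and Fcer1g r was -0.03, -0.09 and 0.20. Within poly(I:C), replicate 2 had the lowest value of all 5 members. The part of red cell precursors in the Fcgr2b and Fcgr3 values was not otherwise tested.

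Set against all genes, 2 of 5 members passed with SLR10, SLR14 and poly(I:C), where 39.4%, 38.7% and 35.9% of the 14012 genes passed. With pppNS 1 of 5 passed, against 4.3% of all genes. The pppNS share was 1.28% without vehicle replicate 1, 1.13% without vehicle replicate 2 and 6.92% without pppNS replicate 2, and that of poly(I:C) was 23.3% without vehicle replicate 1 and 23.6% without vehicle replicate 2. All the calls were rises, and 20.2%, 19.3%, 18.6% and 2.95% of genes rose with the 4 agents. The share of members called in either direction was thus close to the background for the first 3 agents. The median log2 change over the 5 members was 0.53, 0.54, 0.51 and 0.52, against -0.01, 0.04, 0.07 and 0.01 over all genes. An agent's libraries did not overlap the 2 vehicle libraries for 5, 5, 3 and 4 members, where this held for 80.7%, 68.0%, 63.8% and 42.8% of all genes. Against the 5 vehicle and naive libraries together the numbers were 3, 3, 2 and 3 members, and 63.0%, 51.2%, 48.5% and 20.7% of all genes.

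**Figure D3:**
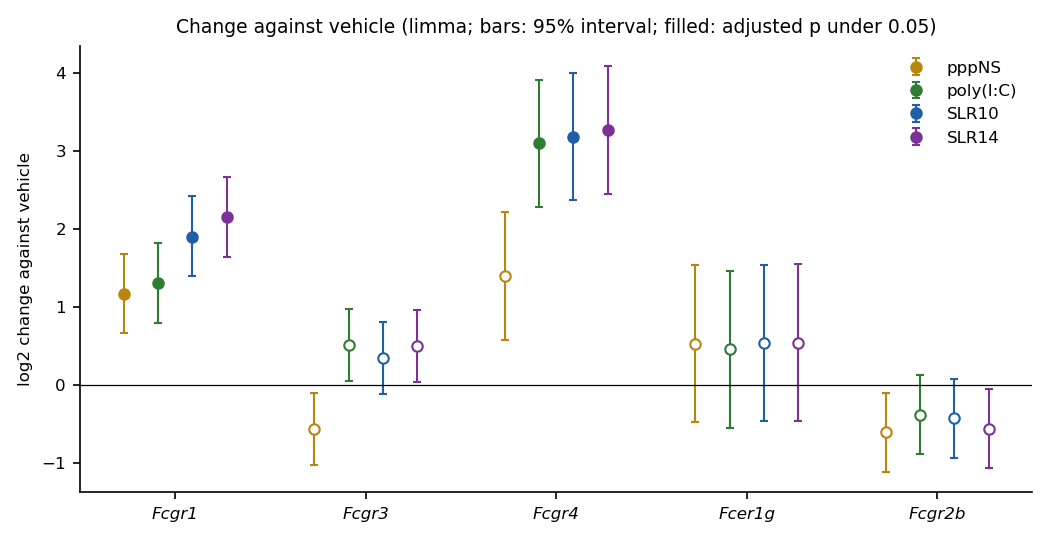
Log2 change against vehicle for each gene (horizontal axis) and agent (colour), with 95% intervals from limma; filled points passed an adjusted p of 0.05. The intervals of Fcgr4 lie between 2.28 and 4.09 for SLR10, SLR14 and poly(I:C), and those of Fcer1g all cross 0.

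The balance of activating to inhibitory transcripts was described by the log2 ratio of each activating gene to Fcgr2b within a library, with 0.5 CPM added to both. For Fcgr4 the ratio was -1.74 ± 0.53 (SD, n = 5) in vehicle and naive spleens together, and 1.38 ± 0.13, 1.60 ± 0.17 and 1.25 ± 0.22 (SD, n = 3 each) with SLR10, SLR14 and poly(I:C). The ratio of Fcgr4, on the CPM scale and so not corrected for transcript length, was below 0 in each control library and above 0 in each of these 9 libraries. For Fcgr1 the ratio went from -2.52 ± 0.19 in controls to -0.17 ± 0.12 with SLR10, 0.21 ± 0.28 with SLR14, -0.82 ± 0.33 after poly(I:C) and -0.73 ± 0.84 after pppNS. For Fcgr3 it was -0.90 ± 0.36 in controls, -0.47 ± 0.15 with SLR10, -0.18 ± 0.19 with SLR14, -0.35 ± 0.13 after poly(I:C) and -1.20 ± 0.03 after pppNS. For Fcer1g it was 0.65 ± 0.51 in controls, 1.23 ± 0.09 with SLR10, 1.37 ± 0.25 with SLR14, 1.10 ± 0.29 after poly(I:C) and 1.39 ± 1.58 after pppNS. The control range of 0.18 to 1.48 overlapped that of every agent. For SLR10, SLR14 and poly(I:C) this overlap rested on naive replicate 3 at 1.48. The other control libraries lay at 0.18 to 0.66, below every library of these agents.

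The ratios were compared by an exact two-sided permutation test of each agent (3 libraries) against the 5 controls, with vehicle and naive treated as exchangeable. The test had 56 splits and a smallest possible p of 0.0357. That smallest p was reached by 9 of the 16 ratios, namely Fcgr1 with all 4 agents, Fcgr4 with SLR10, SLR14 and poly(I:C), and Fcgr3 with SLR14 and poly(I:C). Adjusted over the 16 tests it is 0.0635, so that no ratio could pass 0.05 unless more of them had reached it, and 0 of 16 passed. The difference from controls was 3.13, 3.35 and 2.99 on the log2 scale for Fcgr4 with SLR10, SLR14 and poly(I:C), and 2.35, 2.73, 1.71 and 1.79 for Fcgr1 with SLR10 and SLR14, poly(I:C) and pppNS. For Fcgr4 with pppNS it was 1.51 (exact permutation p = 0.107), with library values from -1.44 to 0.89. Ratios of any gene to Fcgr2b were without overlap for 60.4%, 51.4%, 40.6% and 38.4% of the other 14011 genes with SLR10 and SLR14, poly(I:C) and pppNS, so the lack of overlap by itself does not set the activating genes apart. A ratio shows unequal change of 2 genes, and the Fcgr2b term is shared by all 4 ratios. The vehicle ratios of Fcgr3, Fcgr4 and Fcer1g lay below all naive ones, and those of Fcgr1 lay among them. For Fcgr4 vehicle was at -2.27 and -2.20, and naive at -1.85, -1.07 and -1.33. The pooled control values thus hold differences between vehicle and naive too.

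**Figure D4:**
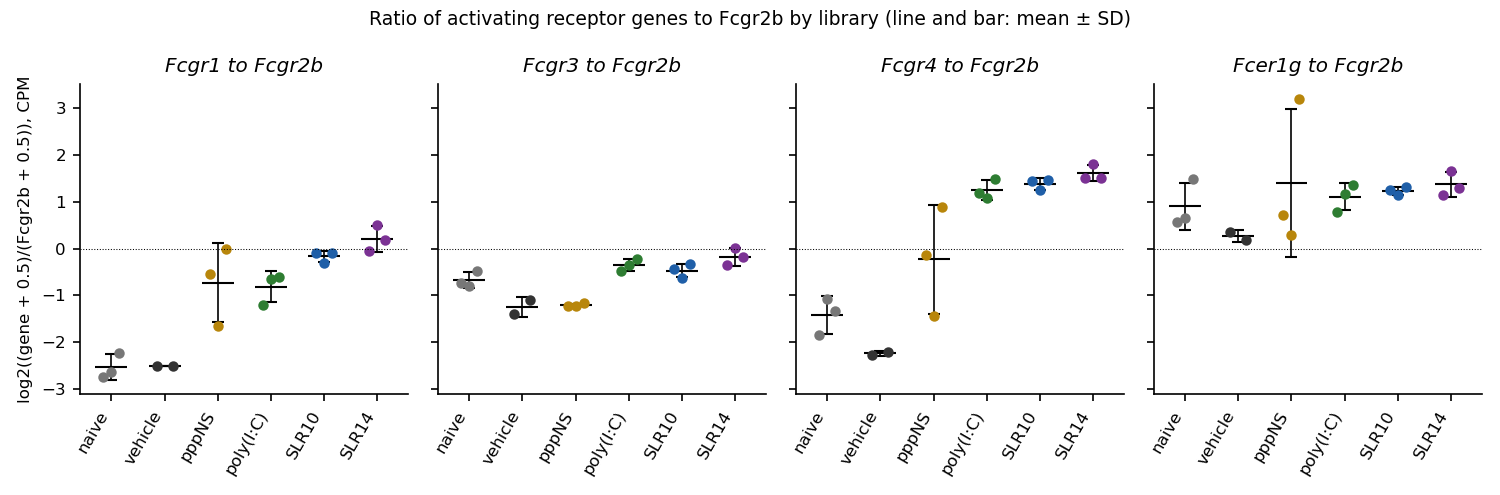
Log2 ratio of Fcgr1, Fcgr3, Fcgr4 and Fcer1g to Fcgr2b, each with 0.5 CPM added, by library and group; the line is the mean, the bar 1 SD and the dotted line marks equal CPM. Fcgr4 crosses from below the dotted line in controls (mean -1.74) to above it with SLR10, SLR14 and poly(I:C), and the pppNS libraries spread from -1.44 to 0.89.

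Levels of different genes were compared per kilobase of the longest coding transcript. In the 5 control libraries the mean level in CPM per kb was 124.1 for Fcer1g, 21.0 for Fcgr3, 14.8 for Fcgr2b, 12.8 for Fcgr4 and 3.37 for Fcgr1. The library ranges of Fcgr3 (15.2 to 24.2), Fcgr2b (12.8 to 15.5) and Fcgr4 (8.74 to 20.4) overlapped one another, and the order of Fcgr2b and Fcgr4 turned when all exons of a gene were used for its length (12.8 against 9.05). With SLR10 the order was Fcer1g (140.3), Fcgr4 (84.9), Fcgr3 (21.6), Fcgr1 (13.9) and Fcgr2b (11.4), and no 2 neighbours in that order overlapped. Fcgr1 was the least abundant member in controls, and Fcgr2b was the least abundant with SLR10 by this measure.

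The agents were then compared with each other. SLR14 and SLR10, which per the labels were given at the same dose, and which are known to differ in the length of the stem, were compared first, and no member passed the test. The log2 difference of SLR14 minus SLR10 was 0.25 for Fcgr1 (95% interval -0.21 to 0.71), 0.16 for Fcgr3 (-0.25 to 0.57), 0.09 for Fcgr4 (-0.64 to 0.82), 0.01 for Fcer1g (-0.89 to 0.91) and -0.13 for Fcgr2b (-0.58 to 0.32). The intervals allow differences up to these bounds in either direction. Over all genes 0 of 14012 passed in limma, 89 had an unadjusted p under 0.05, edgeR called 0 and DESeq2 called 1.

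Poly(I:C), whose dose is not stated apart, had lower Fcgr1 than both stem-loop RNAs, with no overlap between the libraries (as for 35.2% of all genes against SLR10 and 17.6% against SLR14). The log2 difference was -0.60 against SLR10 (-1.06 to -0.14, adjusted p = 0.158) and -0.84 against SLR14 (-1.30 to -0.39, adjusted p = 0.0834), and neither passed in limma, where 1.92% and 1.31% of all genes passed. These shares rest on single libraries: with 1 library of either group left out they ran from 0.421% (without SLR10 replicate 3) to 10.9% (without poly(I:C) replicate 1) against SLR10, and from 0.236% (without SLR14 replicate 1) to 0.949% (without SLR14 replicate 2) against SLR14. The difference from SLR14 passed with DESeq2 (-0.89, adjusted p = 0.0154). For Fcgr4 poly(I:C) differed from SLR10 by -0.09 (-0.82 to 0.64) and from SLR14 by -0.18 (-0.91 to 0.56).

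Against pppNS, all 3 activating receptors were higher with SLR10 and SLR14. Fcgr4 was higher by 1.79 on the log2 scale with SLR10, 1.88 with SLR14 and 1.70 after poly(I:C) (limma adjusted p = 0.00118, 0.000905 and 0.00211). Fcgr3 was higher by 0.91, 1.07 and 1.08 (adjusted p = 0.0022, 0.000775 and 0.000866). Fcgr1 was higher by 0.73 with SLR10 and 0.98 with SLR14 (adjusted p = 0.0154 and 0.00308), and by 0.14 with poly(I:C), which did not pass. Thus 3, 3 and 2 of 5 members passed, where 40.3%, 32.8% and 26.8% of all genes did. The Fcgr1 call with SLR10 was lost without SLR10 replicate 3 (0.70, adjusted p = 0.0525) and with the erythroid covariate (0.76, adjusted p = 0.0518), and the value fell to 0.42 without pppNS replicate 2 (adjusted p = 0.0455). With only the groups compared in the model, both poly(I:C) calls and the Fcgr1 calls with SLR10 and SLR14 were lost. Without pppNS replicate 3, Fcer1g was higher than pppNS by 0.72 with SLR10, 0.72 with SLR14 and 0.64 after poly(I:C), and all 3 passed (adjusted p = 0.0122, 0.0124 and 0.027).

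Between vehicle and naive mice 0 of 5 members passed in limma, where 0.05% of all genes did. The log2 difference of vehicle minus naive was 0.14 for Fcgr1 (95% interval -0.37 to 0.65), -0.46 for Fcgr3, -0.70 for Fcgr4, -0.52 for Fcer1g and 0.12 for Fcgr2b (-0.39 to 0.62). The vehicle libraries of Fcgr3, Fcgr4 and Fcer1g lay below all 3 naive ones and those of Fcgr2b above them, so that 4 members did not overlap, as did 52.5% of all genes.

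Genes of the Fc receptor pathway outside the family were counted from lists drawn up by function. Over all genes 39.4% passed with SLR10 and 4.3% with pppNS, and 20.2% and 2.95% rose. Of 9 tested genes for other Fc receptors, 3 rose and 3 fell with SLR10 (median log2 change 0.00), against 1 and 0 with pppNS. Trim21, the cytosolic receptor for antibody, rose from 30.4 to 183.1 CPM (log2 2.57), and Fcer2a, which encodes CD23 and binds IgE on B cells, fell from 204.4 to 19.6 CPM (log2 -3.35). Of 6 tested receptors that pair with the Fcer1g chain, 2 rose and 2 fell with SLR10 and 2 rose with pppNS. Clec4e and Clec4d, which encode the C-type lectins Mincle and MCL, rose by 3.90 and 3.34 on the log2 scale with SLR10 and by 2.64 and 2.33 with pppNS, and Clec4n, which encodes Dectin-2, fell by 0.85 with SLR10.

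The genes downstream of the receptors moved in both directions. Of 22 ITAM signalling genes, 5 rose and 7 fell with SLR10, 5 rose and 7 fell with SLR14, 5 rose and 5 fell after poly(I:C), and none passed with pppNS, with medians of -0.04, -0.22, -0.18 and -0.10. Card9, an adaptor downstream of Syk, fell by 2.52 with SLR10 and Lat2, a membrane adaptor, by 1.75. Of 9 genes of inhibitory signalling, 1 rose and 2 fell with SLR10. Dok2 and Dok3, adaptors that dampen receptor signalling, fell by 1.06 and 0.68, and Dok1 of the same family rose by 0.47. Of 6 other adaptor chains with an ITAM or a like motif, 2 fell with SLR10, among them Tyrobp, the partner of many myeloid receptors, at -0.71.

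Of 10 known regulators of Fc gamma receptor genes, 7 rose and 0 fell with SLR10 and with SLR14, 8 rose and 1 fell after poly(I:C), and 4 rose with pppNS, with medians of 2.35, 2.31, 2.30 and 1.24. Over all genes 20.2%, 19.3%, 18.6% and 2.95% rose with these agents. Ifng, the gene of interferon gamma, went from 0.887 ± 0.16 CPM (SD, n = 2) in vehicle to 162.5 ± 26.3 (SD, n = 3) with SLR10, and Ifnb1, the gene of interferon beta, was at 216.8 ± 51.0 with SLR10 against 0.0298 in vehicle. Irf1, a transcription factor induced by interferons, rose by 3.29 with SLR10 and by 1.47 with pppNS. Spi1, which encodes PU.1, was at -0.13 with SLR10, did not pass, and fell by 0.92 with poly(I:C). Of the 4 IgG heavy chain genes none passed with SLR10, SLR14 or pppNS and Ighg1 passed with poly(I:C) at -2.57, where the vehicle level was 157.8 ± 198.7 CPM (SD, n = 2).

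**Figure D5:**
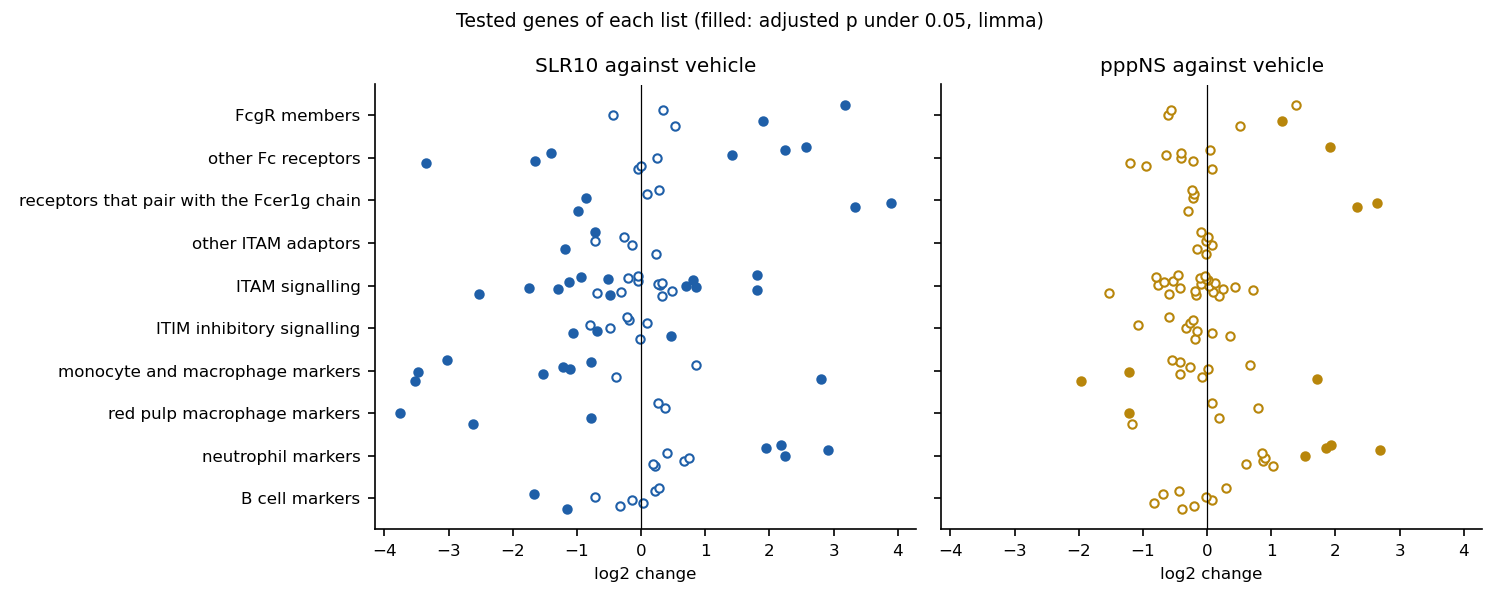
Log2 change against vehicle (horizontal axis) of each tested gene of 10 lists, with SLR10 (left) and pppNS (right); filled points passed an adjusted p of 0.05 in limma. With SLR10 the ITAM signalling genes spread to both sides of 0, and the monocyte and macrophage markers lie mostly below it (7 of 10 lower, 1 higher). Over all genes 39.4% passed with SLR10 and 4.3% with pppNS.

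Markers of the cells that carry these receptors were measured beside them. Of 10 monocyte and macrophage markers, 7 fell and 1 rose with SLR10, 6 and 1 with SLR14, 5 and 1 after poly(I:C), and 2 and 1 with pppNS, and the rise was Cd14 each time. Their summed level was 675 to 719 CPM with SLR10, 644 to 804 with SLR14, 628 to 809 after poly(I:C), 957 to 976 with pppNS, 1101 to 1366 in vehicle and 1594 to 1864 in naive spleens. Most of this sum was Lyz2, with a mean of 433.1 CPM with SLR10 and 750.4 in vehicle. Cx3cr1 and Ccr2, which encode chemokine receptors of monocytes, fell by 3.47 and 3.52 with SLR10. Of 5 red pulp macrophage markers, 3 fell with SLR10, 3 with SLR14, 2 after poly(I:C) and 1 after pppNS, and none rose. Slc40a1, which encodes the iron exporter ferroportin, fell by 3.76 on the log2 scale with SLR10. Of 6 NK cell markers, 2 rose and 2 fell with SLR10, with SLR14 and after poly(I:C), and none passed with pppNS. Of 6 conventional dendritic cell markers, 5 fell with SLR10, 5 with SLR14, 6 after poly(I:C) and 2 after pppNS. Of 9 neutrophil markers, 4 rose with SLR10, 6 with SLR14, 7 after poly(I:C) and 4 after pppNS, and none fell. Their summed level was 496 to 622 CPM with SLR10, 511 to 967 with SLR14, 890 to 1478 after poly(I:C), 321 to 1161 with pppNS, 175 to 176 in vehicle and 263 to 316 in naive spleens. The largest part of this sum was S100a9, with a mean of 251.6 CPM with SLR10 and 54.8 in vehicle. Of 8 B cell markers, 2 fell with SLR10, 3 with SLR14, 4 after poly(I:C) and 0 after pppNS, with summed levels of 1951 to 2120, 1430 to 1995, 1260 to 1795 and 1926 to 2652 CPM, against 2486 to 2491 in vehicle. None of the marker genes tested was at 0 throughout a group. The part of these cell markers in the values of the receptor genes was not tested.

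Fcgr1 and Fcgr4 varied together over the 17 libraries (Pearson's r = 0.91 on log2 CPM), which share the groups. Fcgr2b ran against both (r = -0.62 with Fcgr1 and -0.47 with Fcgr4), and with Fcgr3, with which it shares sequence, r was 0.42. The tested genes whose pattern was most like that of Fcgr1 were Ms4a4d (r = 0.975), Cds1 (0.970) and Dram1 (0.968), and for Fcgr4 they were Fam26f (0.989), Tmem106a (0.984) and Slc2a6 (0.984). Fam26f went from 8.09 CPM in vehicle to 207.3 with SLR10 and 41.0 with pppNS, an order of groups like that of Fcgr4. For Fcer1g they were Batf3 (0.963), Prdx5 (0.940) and Ptms (0.938), for Fcgr3 Mgst1 (0.894), Nipsnap3b (0.882) and Cept1 (0.868), and for Fcgr2b Tmem194b (0.930), Invs (0.921) and Osbpl9 (0.914). Prdx5 and Ptms were highest on average with pppNS (103.0 and 117.0 CPM), the group that holds the library that stood apart on the short-minus-long measure.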

How the data were processed

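RNA was measured in 17 spleen libraries. The submitters' processing notes list HTSeq, edgeR, TopHat2 2.0.6, TopHat, SAMtools 1.4 and FastQC, and name mm10 and GRCm38, without roles. Per the labels' protocols, stranded mRNA libraries were made from total RNA. Values in the deposited table are a signal, called CPM by the authors, for which they scaled each gene's HTSeq reads by an edgeR-normalised library size. The columns sum to 696096 to 748327 in vehicle and naive libraries and to 782210 to 1484240 with pppNS. With SLR10, SLR14 and poly(I:C) they sum to 1058768 to 1275805. The deposited values were whole multiples of a step in each column (100.0% of values above 0 within 0.01 reads), so whole reads were recovered. Dropped were 5 unnamed lines, 699 with the name #N/D, 27 with a date serial for a name and, for 87 names that occur more than once, the 113 lines without the largest sum. The 5 unnamed lines held 28.1% to 31.9% of a library's reads in vehicle and naive spleens and 33.7% to 46.1% with pppNS. With SLR10, SLR14 and poly(I:C) they held 36.9% to 40.4%. In each library 1 read was worth 0.0175 to 0.0431 CPM. Reads carry no molecular identifiers, so PCR copies count as separate reads.

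The 14012 genes that reached 1 CPM in 2 or more libraries were fitted as log2(CPM + 0.5) in 1 model of 17 libraries and 6 groups (limma 3.58.1 with its trend option, R 4.3.3). Within each of 11 comparisons p-values were adjusted by the Benjamini-Hochberg method, and 0.05 was the threshold. The spread is pooled over all groups, which matters for vehicle with n = 2. Ratios were tested with scipy 1.17.1 by exact permutation. The members, the 19 lists and the tests were chosen with earlier results of these data known. All members were named, with up to 3 genes of each list with the smallest adjusted p in the comparison described, and for each member the 3 genes with the highest Pearson r among genes with a mean of at least 5 CPM. Spi1, Cd14 and Ighg1 were named after their values were seen, as the only members of their lists to pass in that direction. Lyz2 was named as the largest part of a sum. Some genes that the rule names are not reported here. Alternatives were other pseudocounts, filters, scalings and controls, only the groups compared in the model, a replicate block, an erythroid covariate, count tests of the whole reads (edgeR 4.0.16, DESeq2 1.42.0), and leaving out single replicates. A short-minus-long covariate and 3 libraries left out together were added after seeing the data. The fits were also run on simulated counts with the same spread of a gene in all groups. No simulated library was made to stand apart, so these runs do not bear on how such libraries moved the calls. Sequences and positions come from RefSeq (GRCm38.p6) and GENCODE vM21.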

Additional observations from a re-analysis of the deposited data

How the results depend on the processing

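The rises of Fcgr1 and Fcgr4 with SLR10, SLR14 and poly(I:C) kept their direction and passed under every alternative run, with log2 changes of 1.76 to 2.04, 1.99 to 2.29 and 1.19 to 1.45 for Fcgr1 and 2.48 to 3.26, 2.57 to 3.34 and 2.40 to 3.37 for Fcgr4. The number of members past the threshold moved elsewhere. With only the groups compared in the model it went from 2 to 5 for SLR10 against vehicle, while the share of all genes called went from 39.4% to 70.7%. It went from 1 to 0 for pppNS against vehicle (0 of 14012 genes called) and from 2 to 0 for poly(I:C) against pppNS (26.8% to 5.19% of all genes). With the erythroid covariate it went from 2 to 4 for SLR14 (38.7% to 44.5% of all genes) and from 2 to 3 for poly(I:C) against vehicle (35.9% to 38.9%). For pppNS against vehicle (4.3% of all genes) it was 2 with naive as control (10.9%) and 2 with vehicle and naive together as control (1546 of 14012 genes), the added call being a lower Fcgr3, and 2 with DESeq2 (9.99%), the added call being a higher Fcgr4. It was 0 to 2 with 1 replicate left out (0 without either vehicle replicate, 2 without pppNS replicate 2). For poly(I:C) against SLR14 it went from 0 to 1 with DESeq2 (1.31% to 2.8% of all genes) and with the short-minus-long covariate (4.1%). With pppNS replicate 3, SLR14 replicate 2 and poly(I:C) replicate 2 left out together, it was 5 for SLR14 (52.5% of all genes) and 4 for poly(I:C) against vehicle (48.3%). The last 2 alternatives were chosen after seeing the data. Fcer1g in poly(I:C) against pppNS turned from -0.06 to 0.64 without pppNS replicate 3 (range -0.48 to 0.64 with 1 replicate left out) and to 0.79 with the 3 libraries left out. The cause of these moves was not tested. The test of the ratios to Fcgr2b had too few splits to bear on their stability. An arm left with 1 library is assumed to vary like the other groups.

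The replicate numbers gave no pairing over all groups together. Residuals of 40 library pairs with equal numbers had a median correlation of 0.03, with 15 over 0.1. Those of 80 pairs with unequal numbers had -0.03, with 27 over 0.1 and a range of -0.879 to 0.72. Equal numbers gave 0.6, 0.272 and 0.75 between pppNS and naive, and 0.8, 0.799 and -0.519 between SLR14 and poly(I:C). Pairing within single pairs of groups was not tested. With the replicate block the members past the threshold stayed 2, 2, 2 and 1 for SLR10, SLR14, poly(I:C) and pppNS against vehicle. Over all genes the calls for pppNS against vehicle went from 603 to 513 with the block, to 569 with edgeR, to 1398 with DESeq2, to 1526 with naive as control and to 0 with only the groups compared. edgeR on the recovered reads called 5375, 5270 and 5017 genes for SLR10, SLR14 and poly(I:C) against vehicle, where limma called 5520, 5422 and 5030. Each member had at least 310 reads in every library, and n = 2 for vehicle limits the precision of the comparisons with it.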
